A study of Mus musculus with 11 samples.

Results

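The sites described here are distal genomic regions where a ZIC2 ChIP-seq peak and an OTX2 ChIP-seq peak overlapped in mouse epiblast stem cells (EpiSCs), with no peak of SOX2, POU5F1 or POU3F1 on the ZIC2 peak. Of the 122053 peaks in the EpiSC ZIC2 list, 121805 lay on chromosomes 1 to 19 or X, 112162 of these were at most 2000 bp wide, and 94726 of those had a midpoint more than 1000 bp from every annotated transcription start site (TSS). Among these distal peaks, 10864 overlapped an EpiSC OTX2 peak by at least 1 bp. After removal of 1181 that also overlapped a peak of SOX2, POU5F1 or POU3F1, 9683 shared sites remained, which is 7.93% of the ZIC2 list. The 9683 ZIC2 peaks met 9251 distinct OTX2 peaks. All 9683 sites entered every count below, unless a subset is named.

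ChIP-seq was performed on feeder-free EpiSCs of the 129/Sv strain that had been transiently transfected with a pCAGGS vector encoding 1 of the 5 TFs with a BLRP tag, a peptide that the co-expressed ligase BirA biotinylates. The EpiSC libraries came from cultures with activin at 20 ng/ml and Fgf2 at 10 ng/ml, and the activin-free libraries (EpiSCA) from cultures kept in Fgf2 but without activin for the last 18 h. Every TF was profiled in 1 library per culture, the 10 lists held between 62457 and 126908 peaks, and the chromatin carried the tagged TF in addition to the endogenous one. A difference between the EpiSC and activin-free lists therefore compares libraries, and culture and library cannot be told apart.

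EpiSCs are pluripotent cells derived from the postimplantation epiblast that depend on activin and Fgf signalling. ZIC2 is a zinc-finger TF of the Zic family, known for its roles in gastrulation and forebrain formation, and OTX2 is a homeodomain TF of the bicoid type that is required for the anterior epiblast and the anterior neural plate. Zic zinc fingers bind GC-rich sequences with a CAGCAGG core, and homeodomains of the bicoid type bind GGATTA, which reads TAATCC on the other strand.

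Sequences of 5 sites are shown as examples from the sites with the highest pair of ranks and from genes of interest. The commonest arrangement, neither sequence within 100 bp of its own TF's midpoint, is shown by the site ranked first, and the others were taken for their matches, which are met at a minority of sites. They are taken from mm9 and written on the plus strand, with CAGCAGG or CCTGCTG and GGATTA or TAATCC in capitals. The Fgf5 site lay in an intron of Fgf5, a growth factor gene of the primed epiblast, and had a ZIC2 score of 1220 and an OTX2 score of 133. The stretch chr5:98684828-98685117 covers both midpoints, which were 89.5 bp apart, with the ZIC2 midpoint at base 190 and the OTX2 midpoint at base 100.
Fgf5 site: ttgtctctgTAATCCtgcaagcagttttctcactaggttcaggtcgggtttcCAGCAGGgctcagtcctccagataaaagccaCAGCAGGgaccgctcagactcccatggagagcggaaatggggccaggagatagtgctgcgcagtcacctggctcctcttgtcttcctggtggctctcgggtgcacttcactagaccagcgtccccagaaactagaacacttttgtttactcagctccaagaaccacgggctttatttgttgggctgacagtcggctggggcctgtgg
Its 2 CAGCAGG sequences lay 14 and 45 bp from the OTX2 midpoint but 104 and 135 bp from the ZIC2 midpoint. Its TAATCC sequence lay 88 bp from the OTX2 midpoint.

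The site with the highest pair of ranks, 1.98 kb upstream of Gm17671, had a ZIC2 score of 3230 and an OTX2 score of 1199. The 200 bp around its ZIC2 midpoint, chr15:102229828-102230027, held no ZIC sequence and 1 TAATCC 95 bp from the midpoint.
Gm17671 site, ZIC2 midpoint: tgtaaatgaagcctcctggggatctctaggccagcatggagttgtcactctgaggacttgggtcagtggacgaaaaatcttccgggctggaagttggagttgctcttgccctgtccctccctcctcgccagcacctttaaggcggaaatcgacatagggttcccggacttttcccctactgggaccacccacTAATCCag
The 200 bp around its OTX2 midpoint, chr15:102229381-102229580, held neither sequence.
Gm17671 site, OTX2 midpoint: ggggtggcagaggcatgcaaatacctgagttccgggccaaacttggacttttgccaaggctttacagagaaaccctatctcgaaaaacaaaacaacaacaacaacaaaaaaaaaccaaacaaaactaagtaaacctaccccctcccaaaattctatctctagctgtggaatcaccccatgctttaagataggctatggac

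At a site 4.33 kb upstream of Mcam, a cell adhesion gene, the ZIC2 peak (score 1411) and the OTX2 peak (score 708) had midpoints 816 bp apart. The 200 bp around the OTX2 midpoint, chr9:43937394-43937593, held 1 CAGCAGG centred 1 bp from the midpoint and 1 GGATTA 64 bp away.
Mcam site, OTX2 midpoint: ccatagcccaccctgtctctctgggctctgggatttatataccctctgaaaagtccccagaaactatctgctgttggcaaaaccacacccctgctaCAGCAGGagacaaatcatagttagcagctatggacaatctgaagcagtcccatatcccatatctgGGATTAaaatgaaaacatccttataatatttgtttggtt
The 200 bp around the ZIC2 midpoint of the same site, chr9:43938210-43938409, held neither sequence and had a GC content of 60.5%.
Mcam site, ZIC2 midpoint: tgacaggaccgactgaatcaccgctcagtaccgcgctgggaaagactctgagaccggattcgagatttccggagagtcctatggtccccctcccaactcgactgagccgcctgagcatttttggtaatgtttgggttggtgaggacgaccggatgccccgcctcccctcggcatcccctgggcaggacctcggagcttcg

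The site with the second-highest pair of ranks lay in an intron of D17Wsu92e, where ZIC2 scored 2135 and OTX2 scored 1591. The 200 bp around its ZIC2 midpoint, chr17:27946395-27946594, consisted of a tandem repeat that placed CAGCAGG 5 times in the window, an arrangement of few sites.
D17Wsu92e site, ZIC2 midpoint: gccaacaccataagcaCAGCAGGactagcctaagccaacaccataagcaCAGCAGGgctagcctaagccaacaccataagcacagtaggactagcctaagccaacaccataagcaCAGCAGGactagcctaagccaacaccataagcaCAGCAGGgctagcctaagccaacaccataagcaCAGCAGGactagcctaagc
The Mycn site, 13.1 kb downstream of the start of this Myc-family gene, had a ZIC2 score of 813 and an OTX2 score of 66.5. The 200 bp around its OTX2 midpoint, chr12:12934395-12934594, held TAATCC 13 bp from the midpoint and no ZIC sequence.
Mycn site, OTX2 midpoint: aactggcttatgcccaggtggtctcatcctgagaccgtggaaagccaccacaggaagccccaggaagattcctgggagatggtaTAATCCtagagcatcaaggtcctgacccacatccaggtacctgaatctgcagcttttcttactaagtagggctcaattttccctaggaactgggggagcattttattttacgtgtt

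The score of a peak was taken as -10 log10 of the p-value that MACS gave it. It thus ranks the evidence for a peak and is no measure of occupancy. The sites were selected on the positions of the EpiSC peaks, so the scores, widths, offsets and overlaps of the EpiSC ZIC2 and OTX2 peaks are a description. Shared sites had a median ZIC2 score of 161, with quartiles of 88.1 and 344, and a median OTX2 score of 114, with quartiles of 72.1 and 199. Both scores were 100 or more at 3798 sites (39.2%), and the ZIC2 score was the higher one at 5945 (61.4%). The ZIC2 and OTX2 scores came from different libraries, whose whole lists had median scores of 170 and 99.2. Which score was higher, here and at the sites named below, therefore does not compare the binding of the TFs. Spearman's rho between both scores was -0.0177 across the sites, which share 1 pair of libraries. The Sall4 site, in an intron of this pluripotency TF gene, had one of the highest OTX2 scores (1634) beside a ZIC2 score of 77.9.

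**Figure D1:**
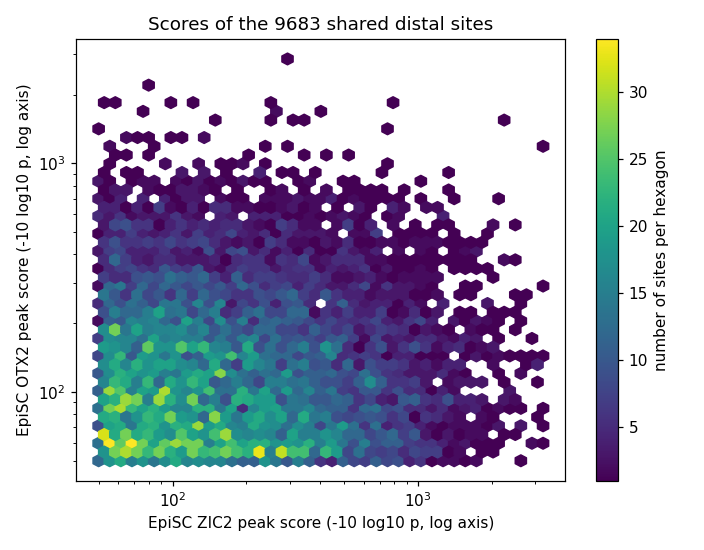
ZIC2 score (horizontal axis) against OTX2 score (vertical axis) of the 9683 shared sites in EpiSCs, both on log axes, with the colour of a hexagon giving the number of sites. Sites fill the lower left corner above the score floor of 50 without a diagonal, and Spearman's rho was -0.0177.

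The ZIC2 peaks had a median width of 845 bp, the OTX2 peaks of 830 bp, and their overlap a median length of 488 bp. The midpoints of the paired peaks were a median of 396 bp apart. They were under 100 bp apart at 1325 sites (13.7%) and at least 400 bp apart at 4802 (49.6%). The number of sites fell slowly over the first 100-bp steps, from 13.7% under 100 bp to 12.8%, 12.4%, 11.5%, 11.7% and 10.5%, and was 8.94% at 600 to 700 bp and 3.16% at 900 to 1000 bp. At 3209 sites (33.1%) neither midpoint lay inside the other peak, and at 3886 sites (40.1%) the overlap covered at least 50% of both peaks. The midpoints thus differed by 100 bp or more at most sites.

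**Figure D2:**
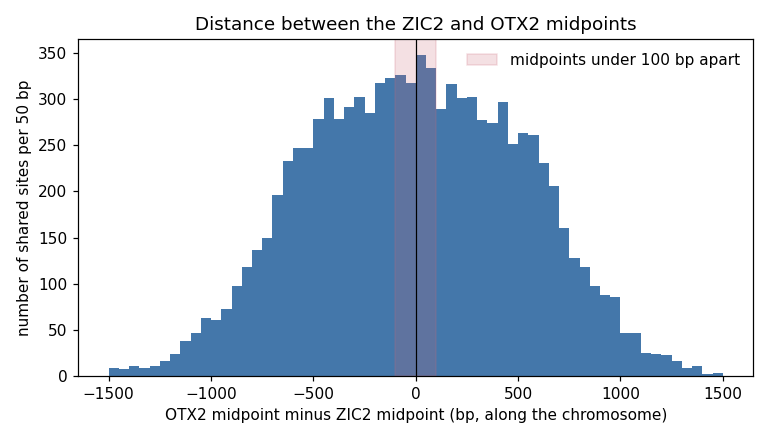
Number of shared sites per 50 bp (vertical axis) by the distance of the OTX2 midpoint from the ZIC2 midpoint along the chromosome (horizontal axis, bp). The distribution is broad and centred on 0, and the shaded band marks the 1325 sites with midpoints under 100 bp apart.

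The activin-free libraries were not used to find the sites, so they give a second reading of these positions. Both peaks of a pair overlapped an activin-free peak of the same TF at 5268 sites. The signed distance between the OTX2 and ZIC2 midpoints there correlated between the cultures, with a Pearson's r of 0.899 and a Spearman's rho of 0.914 across sites, which share their libraries. Of 4558 such sites with midpoints at least 100 bp apart in EpiSCs, 4295 (94.2%) had the OTX2 midpoint on the same side of the ZIC2 midpoint in the activin-free lists. The median shift of a midpoint between cultures was 58.5 bp for ZIC2 and 74.5 bp for OTX2, against a median distance of 410 bp between the paired midpoints. Each activin-free peak had to overlap its EpiSC peak to be counted, which holds their midpoints near each other. The correlations, the same-side share and the small shifts are therefore partly built in. The OTX2 midpoint was not on a preferred side with respect to the nearest TSS. It was the more distant one at 4135 of 8358 sites with midpoints at least 100 bp apart (49.5%, with a 95% Wilson interval of 48.4 to 50.5). Intervals here and below cover counting error only, and sites of one library are not replicates.

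Each TF's sequence was centred on its own peak within the shared sites. CAGCAGG, on either strand and within 100 bp of the midpoint, was present at the ZIC2 midpoint of 1959 sites (20.2%, interval 19.4 to 21.0). It was in 5.91% of windows of 200 bp placed 1000 bp to either side, and in 3.99% of all 12778424 windows of 200 bp that tile chromosomes 1 to 19 and X. At the OTX2 midpoint of the same sites it was in 10.7%. GGATTA was present at the OTX2 midpoint of 1951 sites (20.1%, 19.4 to 21.0), against 8.37% 1000 bp away and 8.00% of all tiles, and at the ZIC2 midpoint of 7.57%. Sequences of the same letters in another order were less frequent, with GCACAGG at 6.66% of the ZIC2 midpoints and ATTAGG at 9.50% of the OTX2 midpoints. ATTAGG overlaps CTAATC by 5 letters on the other strand and so is not independent of it.

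Both sequences, each at its own midpoint, were present at 386 sites (3.99%), and neither at 6159 (63.6%). The presence of one was not tied to that of the other. GGATTA was at the OTX2 midpoint of 19.7% (18.0 to 21.5) of the sites with CAGCAGG at the ZIC2 midpoint and of 20.3% (19.4 to 21.2) of the sites without it. Among all sequences of 6 bases, CTAATC had the highest ratio of frequency at the OTX2 midpoint to that in the flanks, with 14.3% against 4.87% and a ratio of 2.94, and GGATTA was at rank 5 with a ratio of 2.41. Also among the first 10 were AGCTTA (16.9% against 6.79%) and CTAAGC (18.7% against 7.56%). At the ZIC2 midpoint the highest ratios belonged to sequences with CpG, led by CCGCGC with 2.13% against 0.609%, and CCGCAG was in 7.26% against 2.92%. The mean GC content was 53.5% around the ZIC2 midpoint and 47.7% around the OTX2 midpoint, against 46.4% and 47.2% in the respective flanks.

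To see what distinguished shared sites, they were set beside 79700 distal ZIC2 peaks that overlapped no EpiSC peak of another TF (ZIC2 alone) and 66555 distal OTX2 peaks chosen in the same way (OTX2 alone). CAGCAGG was as frequent at ZIC2 alone, with 20.3%, and the difference of -0.107 percentage points had an interval of -0.944 to 0.751 (Newcombe). GGATTA was less frequent at shared sites than at OTX2 alone, where it was in 25.2% of the OTX2 midpoints, a difference of -5.06 points (-5.92 to -4.19). This held in each range of OTX2 scores, with differences of -3.86 points at scores of 50 to 100, -5.44 at 100 to 200, -4.97 at 200 to 400 and -6.61 at 400 or more. The GC content also differed, with a mean of 43.4% at OTX2 alone. With OTX2 alone weighted to the scores and GC content of the shared sites, the difference was -3.65 points (-4.57 to -2.73).

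**Figure D3:**
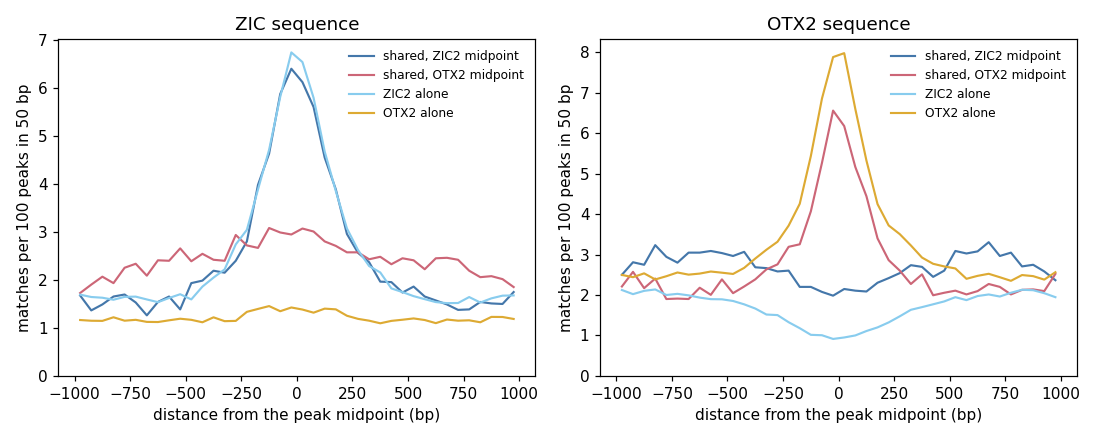
Matches per 100 peaks in steps of 50 bp (vertical axes) by distance from the peak midpoint (horizontal axes, bp) for the ZIC sequence on the left and the OTX2 sequence on the right, at shared sites around either midpoint and at peaks of ZIC2 or OTX2 alone. The ZIC sequence rises around the ZIC2 midpoint of shared sites as at ZIC2 alone, and the OTX2 sequence rises less around the OTX2 midpoint of shared sites than at OTX2 alone.

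Each TF's sequence was also met around the midpoint of the other TF when the midpoints were close. With midpoints under 100 bp apart, CAGCAGG was at 21.4% of the OTX2 midpoints, against 6.56% with midpoints 400 bp or more apart, and GGATTA was at 14.9% against 4.60% of the ZIC2 midpoints. The windows around both midpoints overlap at the closer sites. GGATTA at the OTX2 midpoint itself went the other way, with 15.9% (14.1 to 18.0) at the closer sites and 21.5% (20.4 to 22.7) at the separated ones, a difference of -5.59 points (-7.80 to -3.23). CAGCAGG at the ZIC2 midpoint was at 22.5% and 19.2%, a difference of 3.29 points (0.843 to 5.86).

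Sequences of other TFs were searched for in the same windows. TGANTCA, which AP-1 factors of the Fos and Jun families bind, was at the ZIC2 midpoint of 9.85% of the shared sites (9.27 to 10.5), against 7.32% at ZIC2 alone and 5.93% of all tiles. The difference from ZIC2 alone was 2.53 points (1.93 to 3.17), and 2.06 points (1.43 to 2.69) with ZIC2 alone weighted to the scores and GC content of the shared sites. At the OTX2 midpoint the share, 9.49%, differed from that at OTX2 alone by 0.471 points (-0.138 to 1.11). TGANTCA was more frequent at the ZIC2 midpoint where the midpoints were under 100 bp apart (12.5%) than where they were 400 bp or more apart (8.35%), a difference of 4.18 points (2.31 to 6.21). The octamer ATGCAAAT, which POU factors bind, was at 1.73% of the ZIC2 midpoints against 0.700% at ZIC2 alone, and the share at all tiles was 1.73% as well. In the flanks the octamer was in 1.04% of windows at shared sites and 0.987% at ZIC2 alone. It was in 3.17% of the closer and 1.10% of the separated sites, although no EpiSC POU5F1 or POU3F1 peak overlapped their ZIC2 peaks. The closer and separated sites were not matched in GC content. Among shared sites the octamer was at 4.31% of ZIC2 midpoints with a GC content under 50% and 0.319% with 60% or more. Its difference from ZIC2 alone within a GC range was 2.48 points (1.64 to 3.48) under 50%, 0.580 at 50 to 55% and 0.381 at 55 to 60%. At 60% or more the difference was 0.194 points (-0.0342 to 0.811), and only there did the interval include 0. GGGCGG, the GC box of Sp and Klf factors, was at 7.32% against 5.52% at ZIC2 alone. Within ranges of GC content, this difference was 13.5 points (10.6 to 16.5) at 60% or more. It was 1.65 points under 50%, 0.976 at 50 to 55% and 1.70 at 55 to 60%. ACAATG or ACAAAG, bound by SOX factors, was at 20.4% of the ZIC2 midpoints, against 18.7% at ZIC2 alone (a difference of 1.68 points, 0.845 to 2.54) and 28.4% of all tiles. GGAATG, the sequence of TEAD factors, was at 12.7% against 11.3% at ZIC2 alone. Within GC ranges the difference was 1.13 points (-0.407 to 2.79) under 50% and 0.777 (-0.316 to 1.93) at 50 to 55%. It was 0.985 (-0.245 to 2.32) at 55 to 60% and 3.32 (1.46 to 5.49) at 60% or more. TGTTTAC, the sequence of Fox factors, was at 2.28% of the ZIC2 midpoints, against 1.76% at ZIC2 alone (a difference of 0.526 points, 0.231 to 0.855) and 2.98% of all tiles. In the flanks of shared sites the SOX sequences were in 24.5% of windows and TGTTTAC in 2.64%. The SOX and Fox differences were not split by GC content, which averaged 53.5% at shared ZIC2 midpoints and 54.7% at ZIC2 alone.

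Tandem repeats made up a small part of the sites. A repeat unit of up to 100 bases with at least 70% identity over 300 bp was found at the ZIC2 or OTX2 midpoint of 121 sites (1.25%). They included 2 of the 8 sites with the highest pair of ranks, the D17Wsu92e site shown above and a site in a gene intron 15.5 kb from Slc25a34 with scores of 2220 and 694. At ZIC2 scores of 400 or more, 2.69% of shared sites and 4.52% of ZIC2 alone had such a repeat at the ZIC2 midpoint. The part of the repeats in these scores was not tested.

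The activin-free lists were searched for peaks at the shared sites. An activin-free ZIC2 peak overlapped 7643 sites (78.9%, 78.1 to 79.7), the same percentage as for all EpiSC ZIC2 peaks (78.9%). An activin-free OTX2 peak overlapped 6600 (68.2%, 67.2 to 69.1), against 12.7% of all EpiSC ZIC2 peaks and 2.18% of ZIC2 alone. Both were present at 5199 sites (53.7%), against 10.9% of all EpiSC ZIC2 peaks. The rule required an EpiSC OTX2 peak at shared sites, and ZIC2 alone had none. These OTX2 contrasts therefore follow largely from the selection, and the comparison with other OTX2 peaks is given below. The share with both was 33.7% where the activin-free peaks had to cover the ZIC2 midpoint and 29.1% where their scores had to be 100 or more. ZIC2 without OTX2 was listed at 2444 sites (25.2%), OTX2 without ZIC2 at 1401 (14.5%) and neither at 639 (6.60%). The sites followed their EpiSC scores, since those with ZIC2 only had a median OTX2 score of 69.5 and those with OTX2 only a median ZIC2 score of 72.2, against 152 and 209 at sites with both. When the whole rule was applied to the activin-free lists it gave 6972 sites. Of the EpiSC sites, 4543 (46.9%) overlapped one of these, and 4578 of the 6972 (65.7%) overlapped an EpiSC site.

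The OTX2 peaks of shared sites were met again less often than OTX2 peaks alone. An activin-free OTX2 peak overlapped 69.4% of the members' own OTX2 peaks, 77.9% of OTX2 alone, and 78.1% of all EpiSC OTX2 peaks. The 69.4% counts an OTX2 peak once for every shared site it belongs to, and includes OTX2 peaks beyond the limits on width, TSS distance and other TFs set for OTX2 alone. Counted once and held to these limits, 5780 of 8521 (67.8%) were met again, a difference of -10.1 points (-11.1 to -9.02) from OTX2 alone. Over all shared sites the difference was -8.51 points (-9.49 to -7.55), although the shared OTX2 peaks had the higher scores, with a median of 114 against 94.1. At scores of 50 to 100 the shares were 42.3% (40.8 to 43.8) and 63.6% (63.1 to 64.1), at 100 to 200 they were 83.1% and 92.1%, and at 200 to 400 they were 98.9% and 99.5%. At 400 or more both were 100%. The 4209 weak OTX2 peaks, with scores under 100, were met again at 47.9% where the ZIC2 score was under 100 too and at 37.3% where it was 400 or more. The distance between the midpoints moved this share little, from 40.4% (36.6 to 44.3) under 100 bp to 43.2% (41.0 to 45.4) at 400 bp or more, and so did GGATTA, with 43.9% where it was present and 41.8% where it was absent. GC content moved with it. Weak OTX2 peaks were met again at 70.2% of shared sites with a GC content under 40% and at 29.7% with 50% or more, and the difference from OTX2 alone was -9.29 points (-15.2 to -3.93) under 40%, -8.53 (-12.0 to -5.11) at 40 to 45%, -13.4 (-16.0 to -10.7) at 45 to 50% and -8.37 (-11.1 to -5.58) at 50% or more. With OTX2 alone weighted to the scores and GC content of the shared sites, the difference over all scores was -6.32 points (-7.31 to -5.32). The weighting used the ranges of GC content given above, and the part of GC content within a range was not tested.

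For ZIC2 the corresponding shares were alike. An activin-free ZIC2 peak overlapped 74.3% of ZIC2 alone, 4.59 points less than the shared sites (3.72 to 5.45), but shared sites also had higher ZIC2 scores, with a median of 161 against 134. Within score ranges the shares were 46.5% and 45.3% at 50 to 100, 83.6% and 82.3% at 100 to 200, and 98.6% and 98.4% at 200 to 400, and no interval of these differences excluded 0. After weighting, 0.877 points remained (0.0309 to 1.72).

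**Figure D4:**
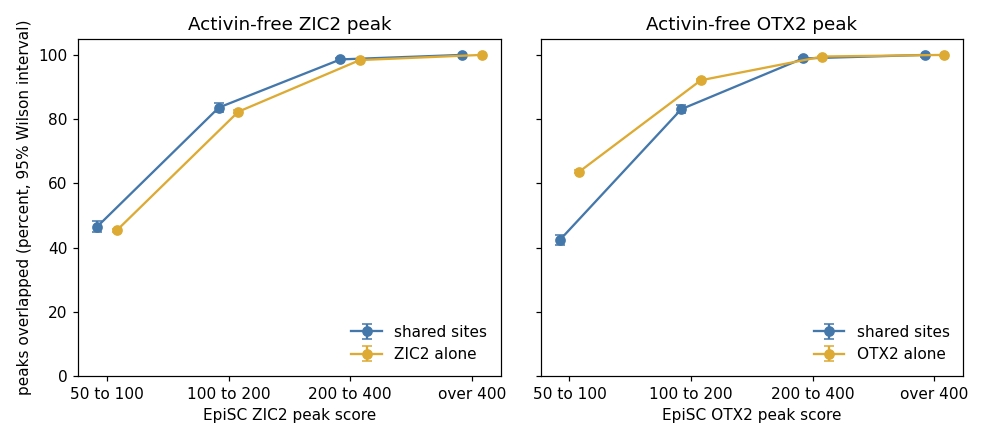
Percent of peaks overlapped by an activin-free peak of the same TF (vertical axis, with 95% Wilson intervals) in 4 ranges of the EpiSC score (horizontal axes), for ZIC2 on the left and OTX2 on the right. Points of shared sites and of ZIC2 alone lie together, and those of shared OTX2 peaks lie below OTX2 alone at scores under 200.

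Few of the shared sites had a peak of another TF in the activin-free lists. SOX2 was listed at 405 sites (4.18%), against 4.62% of all EpiSC ZIC2 peaks, POU5F1 at 173 (1.79%, against 4.27%) and POU3F1 at 75 (0.775%, against 1.80%). The rule had left out sites with EpiSC peaks of these 3 TFs on the ZIC2 peak, which the percentages over all ZIC2 peaks include. Against ZIC2 alone, chosen with the same exclusion, activin-free SOX2 was more frequent at shared sites by 2.66 points (2.27 to 3.09), POU5F1 by 0.351 points (0.0916 to 0.646) and POU3F1 by 0.355 points (0.192 to 0.555). Against OTX2 alone, with the same exclusion, SOX2 differed by 0.590 points (0.183 to 1.03), POU5F1 by -1.24 points (-1.52 to -0.927) and POU3F1 by -0.402 points (-0.580 to -0.191). Shared sites thus lay between both classes for the POU factors. SOX2 was listed at 5.81% of the sites with midpoints under 100 bp apart and at 3.48% of those with midpoints 400 bp or more apart, a difference of 2.33 points (1.07 to 3.81).

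Shared sites lay closer to TSSs than peaks of either TF alone, beyond the 1000 bp that the rule requires of all 3 classes. Their median distance from the nearest TSS was 10.8 kb, against 15.0 kb for ZIC2 alone and 15.0 kb for OTX2 alone. At 1 to 5 kb from a TSS were 28.4% of the shared sites, 6.53 points more than of ZIC2 alone (5.59 to 7.48) and 6.31 points more than of OTX2 alone (5.37 to 7.27). Within 50 kb were 86.9%, against 80.3% and 78.9%. A protein-coding gene contained the midpoint of 5041 sites (52.1%), with 46.1% in introns and 5.94% in exons. ZIC2 alone had 8.01% in exons and OTX2 alone 2.56%. Sites with midpoints under 100 bp apart were inside a gene less often than those with midpoints 400 bp or more apart, with 45.7% against 54.9%, a difference of -9.28 points (-12.3 to -6.24).

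The density of sites was 7.41 per Mb on chromosome 11, 5.27 on chromosome 19 and 0.426 on chromosome X, which held 71 sites. The X chromosome also had the lowest ratio to ZIC2 alone, with 5.06% of both classes together being shared, against 9.08% to 13.7% on the autosomes. Adjacent sites were a median of 68.0 kb apart, and 1055 of 9663 gaps (10.9%) were under 5 kb. No shared site overlapped the Zic2, Otx2, Sox2, Pou5f1 or Pou3f1 gene itself, whose coding sequences the transfected vectors carried.

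The nearest protein-coding gene was taken from the distance between the ZIC2 midpoint and the TSSs of protein-coding transcripts. Shared sites had 5910 different nearest genes, of which 3742 had 1 site and 180 had 5 or more. Most sites belonged to Pvrl1 (nectin-1, a cell adhesion protein), with 16 sites over 209 kb, followed by Rapgef1, an activator of Rap GTPases, with 13 over 201 kb and Grik3, a kainate receptor subunit, with 12 over 440 kb. Fam86 had 11 sites, up to 602 kb from a TSS, and Abr, Arap3 and Rptor, the raptor subunit of the mTOR complex, had 10 each. Plekha7 and Vrk1 had 9 each and Arhgap23 had 8. These genes also had many peaks of ZIC2 alone, 63 near Pvrl1 and 81 near Grik3. Of the 13 Rapgef1 sites, 12 lay inside the gene and 8 had activin-free peaks of both TFs.

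Within 50 kb of a TSS, 22.8% of the 22342 protein-coding genes were the nearest gene of at least 1 shared site, and 7.21% of at least 2. The gene lists below were chosen with earlier results of these data known, and their counts are descriptions. Of 32 genes of the primed epiblast and of pluripotency in general, 19 had a shared site (59.4%), with 34 sites in all, and 9 genes had at least 2. Of 23 genes of activin, Fgf and Wnt signalling, 18 had one (78.3%, 30 sites). The counts were 11 of 23 (47.8%, 21 sites) for genes of the anterior neural plate, 9 of 20 (22 sites) for genes of the primitive streak and endoderm, and 7 of 15 (46.7%, 15 sites) for genes of naive pluripotency. Of 91 ribosomal protein genes, 26 had a shared site (28.6%). Genes with ZIC2 alone were more frequent too, with 87.5% of the primed epiblast list against 63.9% of all genes, and with OTX2 alone 84.4% against 66.3%. Of the 122 sites near genes of the first 5 lists, 107 had an activin-free ZIC2 peak (87.7%, 80.7 to 92.4, against 78.9% of all shared sites) and 84 an activin-free OTX2 peak (68.9%, 60.2 to 76.4, against 68.2%). Both were listed at 79 (64.8%, 55.9 to 72.7, against 53.7%), and 24 had midpoints under 100 bp apart (19.7%, 13.6 to 27.6, against 13.7%). The scores of the 122 sites were not matched to those of all shared sites, and activin-free overlap rose with the EpiSC score. The part of the scores in these differences was not tested.

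**Figure D5:**
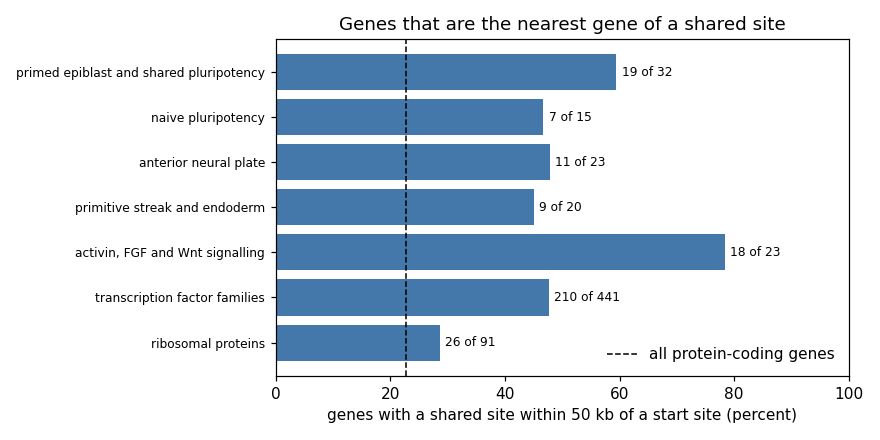
Gene lists (vertical axis) by the percent of their genes that were the nearest gene of at least 1 shared site within 50 kb of a TSS (horizontal axis, from 0), with the number of genes beside each bar. The dashed line is the 22.8% of all protein-coding genes, and signalling genes reach 78.3% while ribosomal protein genes reach 28.6%.

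Nodal, the ligand of the pathway that activin stimulates, had 5 shared sites. The site 11.8 kb upstream, chr10:60868250-60869516, had a ZIC2 score of 1665 and an OTX2 score of 411, and activin-free scores of 3100 and 652. A score of exactly 3100 recurred at 2463 peaks of the activin-free ZIC2 list and at 768 of the EpiSC list, with 232 and 119 peaks above it, so that peaks with this score cannot be ranked. A site 1.93 kb upstream, chr10:60878018-60879556, had a ZIC2 score of 2243 and an OTX2 score of 100, and a site 8.13 kb upstream scored 95.3 and 413. ZIC2 thus had the higher score at the sites 11.8 and 1.93 kb upstream, and OTX2 at the site 8.13 kb upstream. The remaining sites lay 9.58 kb upstream (1028 and 50.4) and 8.23 kb downstream (355 and 113), and the activin-free OTX2 peak was missing at the last one only. The Nodal antagonists Lefty1 and Lefty2 had 1 site each, with ZIC2 scores of 122 and 119.

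In the same pathway, Smad3, which carries the signal to the nucleus, had 4 sites with ZIC2 scores between 104 and 376 and OTX2 scores between 52.5 and 100. The receptor genes Acvr1b and Acvr2b had 2 and 1. In the Fgf pathway, the receptor gene Fgfr1 had 3 sites, of which the one 48.0 kb upstream had one of the highest ZIC2 scores (3214) beside an OTX2 score of 87.6 and no activin-free OTX2 peak. Dusp6, an inhibitor of ERK, had a site 1.42 kb upstream with scores of 2174 and 93.4, met again with 3100 and 98.1. Etv4 and Etv5, Fgf-responsive TF genes, had 2 and 4 sites. In the Wnt pathway, Axin2, a negative regulator, had a site with scores of 1003 and 502 and midpoints 1603 bp apart. The receptor gene Fzd7 had 3 sites and the TF genes Lef1 and Tcf7l1 had 1 and 2.

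Among the TF genes of the epiblast, Sox2 had 3 shared sites. The site 7.56 kb upstream, chr3:34540747-34541982, had scores of 1332 and 463 and activin-free scores of 2032 and 451. The others lay 13.8 kb (966 and 88.6) and 21.3 kb (120 and 80.4) downstream, and all 3 had activin-free peaks of both TFs. Zic2 itself had 2 sites downstream, at 5.95 kb (224 and 130) and 7.24 kb (169 and 56.4), and was the nearest gene of no peak of ZIC2 alone or OTX2 alone within 50 kb. Otx2 had 1 site 33.4 kb upstream (331 and 95.4). The Sall4 site, 1.29 kb into the gene, was met again with activin-free scores of 90.7 for ZIC2 and 2188 for OTX2, so that OTX2 stayed the higher of the pair. No shared site had Nanog or Pou5f1 as its nearest gene within 50 kb, and Nanog was the nearest gene of 7 peaks of OTX2 alone there. The rule leaves out peaks near a TSS, wide peaks and those with a SOX2, POU5F1 or POU3F1 peak. This absence therefore does not cover all ZIC2 and OTX2 peaks. The paper counts Nanog and Pou5f1 among the TF genes near regions bound by ZIC2 and OTX2 with active enhancer marks.

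Genes of the primitive streak and of the anterior neural plate had sites of the same kinds. T (brachyury) had a site 4.47 kb upstream, chr17:8622041-8623600, with scores of 1601 and 396 and activin-free scores of 2753 and 351. Gata4, an endoderm TF gene, had 5 sites, of which 3 had activin-free peaks of both TFs. Eomes had a site 7.93 kb downstream with scores of 956 and 432. The 4 sites of Evx1 included one at 19.2 kb where the midpoints nearly coincided and both sequences were present, with scores of 174 and 173. Among neural plate genes, En2, Pax2, Lhx2 and Fgf15 had 4, 4, 3 and 3 sites. Pax6 had a site in an intron (168 and 502), and its highest-ranked site, 56.1 kb upstream with 1111 and 183, had no activin-free OTX2 peak. Of the naive pluripotency genes, Socs3, a target of STAT3, had 4 sites. One of them, 2.93 kb upstream, had the OTX2 score (1679) above the ZIC2 score (254), and at another, 27.5 kb downstream, the ZIC2 score (2069) was above the OTX2 score (192).

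Genes of TF families, collected by their symbols, were nearest to 483 shared sites (4.99%, 4.57 to 5.44), while they made up 446 of 22342 protein-coding genes. The share was 4.65% at ZIC2 alone, a difference of 0.336 points (-0.106 to 0.810), and 3.36% at OTX2 alone, a difference of 1.62 points (1.19 to 2.10). The 446 annotated genes carry 441 symbols, of which 210 (47.6%) had a shared site within 50 kb, against 22.8% of all protein-coding genes. ZIC2 alone was near 84.1% of the symbols, against 63.9% of all genes, and OTX2 alone near 75.1%, against 66.3%.

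The limits of the rule cut through continuous values. The widest shared ZIC2 peak was 1999 bp and the narrowest one left out was 2001 bp. The shared site nearest to a TSS was 1000.5 bp away, and the excluded peak nearest to the limit was 1000 bp away. At 9 sites the peaks shared 1 bp, while 10 peaks of ZIC2 alone abutted an OTX2 peak without overlap. Sites with an overlap under 100 bp numbered 847, and 865 peaks of ZIC2 alone had an OTX2 peak within 100 bp of their edge. Of the 79700 peaks of ZIC2 alone, 8014 had an OTX2 peak under 1 kb from their edge.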

How the data were processed

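Biotinylated TFs were recovered with streptavidin, and sonicated DNA of about 150 bp was sequenced. Alignment to mm9 was done by the authors in Bowtie2, and MACS 1.4 called the peaks of each library against an input, with a band width of 150 bases. The deposited lists give peak positions and a score of at least 50. They do not name its unit, which was taken as -10 log10 of the p-value, as MACS 1.4 writes it. They contain no reads, so depth is unknown and precision is given by counts of peaks alone. All 10 lists were used, and the input library was not analysed here.

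Overlaps were counted from 1 bp on chromosomes 1 to 19 and X. TSSs (86803 distinct) and genes came from GENCODE vM1 and sequence from the same build, mm9. Shares have 95% Wilson intervals, and differences have Newcombe intervals. Weighted differences use 16 strata of score and GC content, with normal intervals; these, the search for tandem repeats and the count of distinct OTX2 peaks were added after seeing the data. No p-values were computed. The steps were tested on simulated peaks and sequence. Named genes are those of the lists and the 10 genes nearest to most sites. Named sites are the 8 whose lower-ranked of both scores ranked highest and the best-ranked site of 7 genes, of which Nanog had none. The other sites of listed genes were chosen for description after their values were seen. The members and lists were chosen with earlier results of these data known. The software was Python 3.11.15, matplotlib 3.10.9, pysam 0.24.0, numpy 2.4.6 and, for correlations, scipy 1.17.1.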

Additional observations from a re-analysis of the deposited data

How the results depend on the processing

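The lists hold 1 library per TF and culture, so no replicate error can be given. Requiring EpiSC scores of at least 100 gave 3849 sites, with activin-free ZIC2 at 92.9%, OTX2 at 87.3%, both at 80.9%, another TF at 7.07%, GGATTA at 19% and 87.6% within 50 kb of a TSS. When the overlap had to cover 50% of each peak, there were 3886 sites, with 80.7%, 69.2%, 57.3% and 7.41% for the same activin-free shares, CAGCAGG at 21.3%, GGATTA at 18.8%, 85.1% within 50 kb and 48.5% inside a gene. A width limit of 1000 bp gave 6336 sites. Counting only activin-free peaks with scores of at least 100 gave 61.1%, 48.1%, 29.1% and 2.93%. Within 50 bp of the midpoint, CAGCAGG was at 10.8% and GGATTA at 11.4%, and within 200 bp at 33.2% and 31.7%. At the midpoint of the other TF the shares were 10.7% and 7.57%. With TSSs of protein-coding transcripts only, 79.1% of sites were within 50 kb. Chosen after seeing the data, an activin-free peak had to cover the ZIC2 midpoint, which gave 77.2%, 44.7%, 33.7% and 2.94%. In another alternative added then, without sites holding a tandem repeat, all 10 results stayed within their intervals or within 1.5 times the count. Of 55 alternative values, 36 moved beyond these limits. Most are shares or counts, which have no direction to reverse. No paired analysis was possible because no TF has more than 1 library in a culture.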
